A study of Homo sapiens with 50 samples.

Results

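NF-kappaB is a family of transcription factors held in the cytoplasm by inhibitor proteins until kinases mark those inhibitors for destruction. In senescent fibroblasts it is known for driving the secretion of inflammatory cytokines and proteases. The screen held hairpins against 9 genes of this pathway, in 3 roles. The IKK genes were CHUK and IKBKG, which encode a kinase and the regulatory subunit of the IKK complex, and IKBKE, which encodes a related kinase. The others were the inhibitor genes NFKBIA, NFKBIB, NFKBIE and NFKBIZ, and the subunit genes NFKB1 and NFKB2. Hairpins were taken where the table's gene column held exactly 1 of these names, which gave 44 of 3443 hairpins: 15 against IKK genes, 19 against inhibitor genes and 10 against subunit genes. Each gene had 5 hairpins except NFKBIE, which had 4, and no hairpin named one of these genes together with another. The 9 names all matched symbols that RefSeq uses for GRCh38.p14. The deposited table gives each hairpin by its catalogue number, which is used below.

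The screen asked which epigenetic regulators limit the replicative lifespan of fibroblasts, on the reasoning that cells in which a limiting gene is knocked down come to outnumber the others. IMR90 cells, human lung fibroblasts that stop dividing after a limited number of doublings, were kept at 3% oxygen and infected with lentiviral pools at a multiplicity of infection of 0.3. Genomic DNA was taken from 10 plates each at population doubling (PD) 40, called the proliferating control, then at 45, 50, 55 and 60, by which time the cells were senescent. All groups carried the hairpin library, and the same cultures were followed over time. The samples of each time are labelled as 10 paired pools, and which pool a hairpin was in is not given.

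Each hairpin's abundance was a count of sequence tags from the integrated DNA, with 1 column per population doubling. Column totals, in order of time, were 8626437, 8782622, 8479667, 11505688 and 8270745 tags. The plates of a time shared 1 column, so the spread between cultures could not be measured and no value below has a test. Levels are given as tags scaled to a column total of 1000000 (CPM). Fold changes are ratios of CPM with exact 95% Poisson intervals. These cover counting error only, since tags came from PCR and no molecular identifiers are described. A hairpin was called higher or lower when log2 of CPM plus 1 differed from PD40 by over 2-fold, among hairpins with at least 10 tags in either column. On this rule 43 of the 44 hairpins could be called, the exception being NFKBIA TRCN0000004542 with 6 tags at PD40. Higher and lower are relative to the column total, which a few hairpins came to dominate: the 35 most abundant hairpins held 85.4% of tags at PD60, against 19.3% at PD40. TMM factors, a scaling that seeks a common level for most hairpins, raise every ratio of PD60 to PD40 by 6.85 on the log2 scale. Many directions turn with them, as given below. In log2 fold changes with other scalings, the 1 CPM added (the pseudocount) was set again on the new totals unless stated. Those values therefore move by other amounts.

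At PD60, 2 of the 43 hairpins were higher than at PD40, or 4.65%, against 2.28% of all 3418 hairpins called. Both were against IKBKE. The other 41, or 95.3%, were lower, the same share as in the whole library (95.3%). The median log2 fold change was -5.53 over the pathway's hairpins and -5.86 over all hairpins. By role it was -6.13 for the IKK genes, -5.65 for the inhibitor genes and -4.96 for the subunit genes. This order depended on the settings. With 0.1 CPM added in place of 1, the medians were -7.46, -8.78 and -7.97, and with 10 CPM -3.47, -2.70 and -2.56. With TMM factors and the pseudocount set again they were -0.68, -2.50 and -1.66. With TMM factors and the pseudocount kept at its worth in tags they were 0.71, 1.20 and 1.88, in the same order as with column totals. None of the 38 hairpins called against the 8 genes other than IKBKE was higher at PD60, against 2.28% of all hairpins. IKBKE was set apart because it held both higher hairpins, so this count follows from the split.

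Earlier in the series more of the pathway's hairpins stood above their PD40 level. At PD45, 6 of 43 were higher, against 5.73% of all hairpins, and 28 were lower (65.1%, against 63.2%). At PD50, 4 were higher (9.30%, against 4.94%) and 33 lower (76.7%, against 81.9%). At PD55, 2 were higher (4.65%, against 2.92%) and 37 lower (86.0%, against 91.7%). The 6 hairpins at PD45 came from 4 genes, with 2 each against IKBKE and CHUK and 1 each against NFKBIZ and NFKB1. Of the 44, 36 had their highest level at PD40. The peak came at PD45 for 4, at PD50 for 1, at PD55 for 2 and at PD60 for 1. The hairpins that peaked later started from very different levels, so they are described one at a time.

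IKBKE encodes IKK-epsilon, a kinase related to TBK1 that acts in interferon responses and can feed into NF-kappaB. Its 5 hairpins split widely. TRCN0000010034 was the most abundant hairpin of the pathway at every time, with 36343, 81480, 141592, 333739 and 122172 tags at PD40, PD45, PD50, PD55 and PD60. These were 4213, 9277, 16698, 29006 and 14772 CPM. Its CPM climbed at each of the first 3 steps, and at the last it was 0.509 of that at PD55 (0.506 to 0.513), a drop that other scalings turned into a gain: 1.89-fold with TMM factors, 2.76-fold with DESeq2 size factors and 1.40-fold with totals without the 50 hairpins most abundant at PD60. Its ratio to PD40 was 2.20 at PD45 (2.18 to 2.23), 3.96 at PD50 (3.92 to 4.01), 6.89 at PD55 (6.81 to 6.96) and 3.51 at PD60 (3.47 to 3.55). In the library it ranked 19 at PD40, 12 at PD45 and PD50, 8 at PD55 and 21 at PD60.

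The other IKBKE hairpin that ended higher, TRCN0000010035, followed another course. It had 6261, 12776, 12152, 14328 and 32207 tags, or 725.8, 1455, 1433, 1245 and 3894 CPM. After an increase at PD45, where its ratio of 2.00 (1.94 to 2.07) lay at the threshold, it stayed near that level to PD55 and then stepped up 3.13-fold (3.07 to 3.19). At PD60 its ratio was 5.37 (5.22 to 5.51), the highest of the pathway and rank 37 among the 3418 hairpins called. Its log2 fold change of 2.42 became 9.25 with TMM factors, 9.31 with DESeq2 size factors and 5.56 with totals without the 50 hairpins. For TRCN0000010034 the value of 1.81 became 8.65, 8.71 and 4.95 in the same order. Over the 1771 hairpins with at least 10 tags at PD55, the median ratio for that step was 0.123, and 83 hairpins (4.69%) were over 2-fold higher.

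The remaining IKBKE hairpins were lost. TRCN0000010036 had 3271, 1107, 2420, 101 and 4 tags, so it recovered at PD50 before falling away, and was 784-fold lower at PD60 (ratio 0.00128, 0.000347 to 0.00327). TRCN0000010027 was lost early, with 1279, 51, 8, 5 and 1 tags, a ratio at PD60 of 0.000815 (2.06e-05 to 0.00455). TRCN0000010037 began with 23 tags, had 1 at PD45 and none afterwards, which at a floor of 3 tags is at least 7.35-fold lower at PD60. The 3 IKBKE hairpins with the most tags at PD40 were in the top quintile of the library, and the 2 that ended higher were the 2 that started highest.

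IKBKE had the highest mean log2 fold change of the 9 genes at PD60, -2.54 (SD 4.85, 5 hairpins), rank 13 of 631 genes with at least 3 hairpins. Its 5 hairpins spanned 10.4 log2 units, and their SD ranked 15 of 631, against a median SD over genes of 1.55. Without TRCN0000010035 the mean was -3.78, and without TRCN0000010036 it was -1.17. TRCN0000010037 stood at -1.87, the lowest value that its start of 23 tags allows with 1 CPM added. Without TRCN0000010037 the mean was -2.71. IKBKE was 1 of 7 genes with 2 or more hairpins over 2-fold higher. Over the 4 later times its mean course was most like those of PJA2, at a Euclidean distance of 0.60 log2 units, MEN1, at 0.64, and HBB, at 0.72. Likeness here is of means over 3 hairpins for PJA2, 8 for MEN1 and 5 for HBB, over 4 columns.

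CHUK encodes IKK-alpha, the catalytic kinase of the alternative NF-kappaB route, which has also been described as a histone H3 kinase. With column totals, 2 of its hairpins, TRCN0000000506 and TRCN0000000507, were over 2-fold higher at PD45 and PD50 and lower at PD60. Both stayed higher at PD60 with TMM factors (log2 fold change 4.79 and 2.62) and DESeq2 size factors (4.86 and 2.71). With totals without the 50 hairpins, TRCN0000000506 was higher (1.16), but TRCN0000000507 was below its PD40 level (ratio 0.563). TRCN0000000506 had 1346, 4491, 8052, 3328 and 328 tags, or 156.0, 511, 949.6, 289.2 and 39.7 CPM. Its ratio to PD40 was 6.09 at PD50 (5.74 to 6.45), the largest of the 44 hairpins at that time. At PD60 it was 3.93-fold lower than at PD40 (ratio 0.254, 0.225 to 0.287), the highest end point of CHUK. TRCN0000000507 had 327, 1021, 705, 249 and 20 tags, with ratios of 3.07 at PD45 (2.71 to 3.48), 2.19 at PD50 (1.92 to 2.51) and 0.0638 at PD60 (0.0385 to 0.1002).

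Of the other CHUK hairpins, none passed its PD40 level at any later time with column totals. TRCN0000000504 had 1597, 1204, 443, 234 and 43 tags and was 35.6-fold lower at PD60. It was higher there with TMM factors (log2 fold change 1.65) and DESeq2 size factors (1.71). TRCN0000000505 ended at 2 tags, against 1405 at PD40, a ratio of 0.00148 (0.000180 to 0.00537). TRCN0000000508 had none at PD60, against 309 at PD40, at least 98.8-fold lower. The mean for CHUK was -0.09 at PD45 (SD 1.76), rank 20 of 631 genes, then -1.39 at PD50 (SD 3.20, rank 46), -2.98 at PD55 (SD 3.10, rank 63) and -4.52 at PD60 (SD 1.91, rank 108).

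IKBKG encodes NEMO, the regulatory subunit without kinase activity that holds the IKK complex together. All 5 of its hairpins were lower at PD50, PD55 and PD60, and 4 of 5 at PD45. At PD60 the SD over its hairpins was 0.42, against 4.85 for IKBKE and 1.91 for CHUK. All 5 were then at 0 to 2.06 CPM, where adding 1 CPM narrows differences, and at PD50 the SD was 1.28. TRCN0000022147 kept the most, with 1843, 955, 311, 98 and 17 tags, 104-fold lower at PD60 (ratio 0.00962, 0.00559 to 0.0154). TRCN0000022148 had 1255, 133, 12, 4 and 0 tags, at least 401-fold lower. The other 3 had 0 to 11 tags at PD60, against 699 to 2166 at PD40. The mean was -6.57 at PD60 (rank 541 of 631) and -5.88 at PD55 (SD 0.84, rank 594), the lowest of the 9 genes at both times. That place depended on the settings. With 0.1 CPM added in place of 1, NFKB2 (-9.05), NFKBIE (-8.69) and NFKBIB (-8.53) were below IKBKG (-8.50) at PD60. With TMM factors and the pseudocount set again, NFKB2 (-2.77), NFKBIE (-2.28), NFKBIB (-2.16) and NFKBIA (-2.02) were below IKBKG (-1.92). With TMM factors and the pseudocount kept at its worth in tags, IKBKG (0.28) stayed below NFKBIE (0.84) and NFKB2 (0.90). The most similar mean courses were those of SCMH1 (distance 0.16), FBXL11 (0.37) and KAT2B (0.37).

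IKBKB, the gene of the remaining catalytic IKK, IKK-beta, is outside the 9 and is given for comparison. Its TRCN0000018917 had 1312, 1482, 408, 2 and 2 tags, and its other 4 hairpins ended at 0 to 2 tags, against 26 to 1046 at PD40. With column totals, no IKBKB hairpin was over 2-fold higher at any time, against 2.28% to 5.73% of all hairpins.

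NFKB1 encodes the precursor of the p50 subunit. Its hairpin TRCN0000006517 was over 2-fold higher at PD45, PD50 and PD55 and lower at PD60 with column totals (3.50 higher on the log2 scale with TMM factors), with 4542, 16690, 26176, 38194 and 435 tags, or 526.5, 1900, 3087, 3320 and 52.6 CPM. It was 3.61-fold higher than PD40 at PD45 (3.49 to 3.73), 5.86-fold at PD50 (5.68 to 6.05) and 6.30-fold at PD55 (6.11 to 6.50). At PD60 it was 10.0-fold lower than at PD40 (ratio 0.0999, 0.0903 to 0.110) and 63.1-fold lower than at PD55. With totals without the 50 hairpins, its ratio of PD60 to PD40 was 0.882. Its rank was 420 at PD40, 41 at PD55 and 290 at PD60. Of the 1771 hairpins with at least 10 tags at PD55, 771 (43.5%) were over 10-fold lower at PD60 than at PD55.

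No other NFKB1 hairpin was called higher with column totals. TRCN0000006518 had 889, 1495, 535, 637 and 50 tags. It was 1.65 times its PD40 level at PD45 (1.52 to 1.80) and 17.1-fold lower than PD40 at PD60. At PD60 it was higher with TMM factors (log2 fold change 2.65) and DESeq2 size factors (2.73), but not with totals without the 50 hairpins. TRCN0000006520 had 1196, 1322, 246, 41 and 4 tags, a ratio of 0.00349 at PD60 (0.000949 to 0.00895). TRCN0000006519 and TRCN0000006521 started at 30 and 119 tags and had none by PD50 and PD55, and at PD60 they were at least 9.59-fold and at least 38.0-fold lower. The mean for NFKB1 ranked 14 of 631 genes at PD55 (-1.84, SD 2.96) and 61 at PD60 (-3.96, SD 1.61).

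NFKB2 encodes the precursor of the p52 subunit, whose processing is triggered by IKK-alpha. All 5 hairpins were lower at all 4 later times. TRCN0000006516, the most abundant, had 3605, 795, 115, 8 and 1 tags, a ratio at PD60 of 0.000289 (7.32e-06 to 0.00161), with the lowest log2 fold change of the pathway (-8.55). The other 4 started at 227 to 465 tags and had none at PD60. At PD45 they were already at 10 to 48 tags. The mean was -3.22 at PD45 (SD 0.76, rank 614 of 631) and -5.95 at PD60 (SD 1.499, rank 412). At PD45 NFKB1 stood at -0.22 (SD 1.65, rank 28), and the difference between the 2 subunit genes was not tested.

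Of the 19 inhibitor hairpins, 1 passed its PD40 level at a later time with column totals, and it was against NFKBIZ. NFKBIZ encodes I-kappa-B-zeta, a nuclear member of the family that helps activate selected NF-kappaB targets. TRCN0000147551 had 4822, 15782, 4500, 819 and 50 tags, or 559.0, 1797, 530.7, 71.2 and 6.05 CPM. It was above PD40 at PD45 (ratio 3.21, 3.11 to 3.32), 0.949 of its start at PD50 (0.911 to 0.989), and 92.5-fold lower at PD60. With TMM factors the ratios to PD40 at PD45, PD50 and PD60 were 7.23, 6.77 and 1.24. With totals without the 50 hairpins they were 3.81, 1.57 and 0.0954. TRCN0000131219 dipped to 44 tags at PD45 and had 131 at PD50, against 186 at PD40, before it ended at 1. TRCN0000147259 ended at 1 tag, against 1474 at PD40, a ratio of 0.000708 (1.79e-05 to 0.00395), and had the lowest log2 fold change of NFKBIZ. The last 2, TRCN0000148089 and TRCN0000148570, started at 390 and 44 tags and had none at PD60.

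NFKBIA encodes I-kappa-B-alpha, the inhibitor that NF-kappaB itself induces in a negative feedback loop. None of its 5 hairpins had a tag at PD60, and 4 of them started low, at 6, 41, 42 and 368 tags. TRCN0000010888 was the only one above the library's median start of 1019 tags. It had 1445, 611, 83, 8 and 0 tags, at least 462-fold lower. For the 3 that started at 6 to 42 tags the floor allows a bound of only 1.92-fold to 13.4-fold at PD60, and a deeper loss was not detectable at this depth.

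NFKBIB and NFKBIE encode I-kappa-B-beta and I-kappa-B-epsilon, further cytoplasmic inhibitors. For NFKBIB, 3 hairpins started at 349, 452 and 893 tags and were at 9, 9 and 47 at PD45, 1 to 3 at PD50, and 0 or 1 at PD60. The other 2 held on longer: TRCN0000018557 had 492, 337, 364, 163 and 0 tags and TRCN0000018558 had 484, 87, 161, 110 and 3. The first was at least 157-fold lower at PD60, and the second had a ratio of 0.00646 (0.00133 to 0.0190). The NFKBIB mean was -3.21 at PD45 (SD 1.73, rank 613 of 631) and -5.78 at PD60 (SD 0.48, rank 367).

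For NFKBIE, TRCN0000056837 had 837, 571, 259, 46 and 9 tags and was 89.2-fold lower at PD60. Its other 3 hairpins started at 487 to 723 tags and had none at PD60. The largest bound among them was at least 231-fold, for TRCN0000056834, and the mean was -6.01 (SD 0.38, 4 hairpins, rank 429 of 631).

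Loss to 0 tags was read against starting abundance, which moved with it. At PD60, 23 of the 44 hairpins had no tag (52.3%), against 44.1% of the library. They were 13 of 19 inhibitor hairpins (68.4%), 6 of 10 subunit hairpins (60.0%) and 4 of 15 IKK hairpins (26.7%). At PD40 the median start was 484 tags for the inhibitor genes, 424 for the subunit genes and 1346 for the IKK genes, against 1019 for the library. Of the 19 inhibitor hairpins, 14 were in the lowest 2 quintiles of the library by PD40 tags, as were 6 of 10 subunit and 4 of 15 IKK hairpins. In the lowest quintile 10 of 11 pathway hairpins had no tag at PD60, against 84.4% of the library there. In the quintile above it they were 11 of 13, against 69.8%, and in the middle quintile 1 of 9, against 45.8%. The part of starting abundance in the difference between roles was not tested. Starting abundance also went with ending higher: both higher IKBKE hairpins were in the top quintile, where 6.24% of the library's hairpins were higher, against 0.151% in the lowest.

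The hairpin labelled as non-targeting had 4562, 1775, 669, 133 and 39 tags, a ratio of 0.00892 at PD60 (0.00633 to 0.0122). In a comparison added after the values were seen, the counting interval lay wholly above that of the non-targeting hairpin for 7 of the 44 hairpins (15.9%, against 18.7% of the library). These were the 2 higher IKBKE hairpins, CHUK TRCN0000000504, TRCN0000000506 and TRCN0000000507, and NFKB1 TRCN0000006517 and TRCN0000006518. It lay wholly below for 10 (22.7%, against 32.4%), of which 5 were against IKK genes, 4 against inhibitor genes and 1 against a subunit gene. The remaining 27 overlapped it. No inhibitor hairpin lay above. The non-targeting value rests on 1 hairpin.

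The pathway's share of all tags was carried by a single hairpin. The 44 hairpins were 1.28% of the library and held 0.985%, 1.65%, 2.34%, 3.41% and 1.88% of tags at the 5 times, PD40 first. IKBKE TRCN0000010034 made up 42.8%, 56.4%, 71.2%, 85.1% and 78.6% of these. Without it the share was 0.563%, 0.719%, 0.675%, 0.508% and 0.401%. The inhibitor genes held 0.164%, 0.214%, 0.0674%, 0.0103% and 0.000786% of tags in the same order. The subunit genes held 0.136%, 0.233%, 0.320%, 0.338% and 0.00592%. At PD55 nearly all of the subunit genes' 38883 tags were the 38194 of NFKB1 TRCN0000006517.

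The direction of most values depended on the scaling. Scaling alone shifts every hairpin by the same amount and leaves the order of genes as it was. In a setting added after the values were seen, TMM factors were used with the pseudocount kept at its worth in tags. The library's median log2 fold change was then 0.99, against -5.86 with column totals. In that setting 26 of the 43 hairpins were higher at PD60, against 49.5% of all hairpins, and 2 were lower, against 7.99%. With the pseudocount set again to 1 CPM of the TMM totals, which changes scaling and pseudocount together, 7 were higher, against 18.8%, and 25 lower, against 64.4%. The 7 were those that lay above the non-targeting hairpin. Both rules cut the same PD60 to PD40 ratios and each took in 644 hairpins of the library, so this overlap is no separate evidence.

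The order of the 9 genes against the library's median is free of the scaling, though not of the pseudocount. With column totals the mean of IKBKE stood 3.32 above that median, NFKB1 1.90, NFKBIA 1.38, CHUK 1.34, NFKBIZ 0.65 and NFKBIB 0.08. NFKB2 stood at -0.09 against it, NFKBIE at -0.15 and IKBKG at -0.71. With TMM factors and the pseudocount set again, IKBKE stood at 4.27, CHUK at 2.74, NFKB1 at 2.47 and NFKBIZ at 0.57, and IKBKG, NFKBIE and NFKB2 stood at -0.08, -0.44 and -0.94. NFKBIA (-0.18) and NFKBIB (-0.32) were then below the median. With column totals and only hairpins of at least 100 tags at PD40, the NFKBIA mean was -6.42, against a library median of -5.93.

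Of 29 other genes of the pathway listed, 3 were in the library as single names: IKBKB, REL and NFKBIL1, with 17 hairpins. With column totals, none of the 17 was over 2-fold higher at any time, against 2.28% to 5.73% of all hairpins. At PD60, 14 of the 17 were lower, against 95.3% of all hairpins, and the median log2 fold change was -6.09, against -5.86. REL encodes the subunit c-Rel. Its TRCN0000010420 had 26719, 33592, 37962, 45173 and 26659 tags and ended close to its start, with a ratio of 1.04 at PD60 (1.02 to 1.06). REL TRCN0000039986 had 1054, 704, 312, 228 and 968 tags, so that it lost ground to PD55 and regained it at PD60 (ratio 0.958, 0.877 to 1.05). NFKBIL1, whose product resembles the inhibitors, had TRCN0000056815 at 8298, 9253, 10252, 19113 and 14157 tags, 1.78 times its PD40 level at PD60 (1.73 to 1.83). LMNB1, the gene of lamin B1, is given for comparison. Its TRCN0000029272 had a ratio of 20.7 and its other 4 hairpins ratios of 0.00238 to 0.0533, with a mean of -3.71 (SD 4.65).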

How the data were processed

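The authors deposited raw counts of sequence tags per hairpin, per the file headers, with 1 column for each of 5 population doublings. Per the submitters' processing notes, Bowtie 1.0.1 was among the tools used. How the 10 plates were combined into a column is not given in the sources used here. Columns were treated as pooled values, so no test was run. Counts were scaled to column totals (8270745 to 11505688 tags, 1 tag being 0.0869 to 0.121 CPM). Log2 fold changes used a pseudocount of 1 CPM, and ratios used exact conditional Poisson intervals. Counts of 0 were raised to a floor of 3 tags to give bounds. Gene means used hairpins naming 1 gene only, with at least 10 tags in either column. The fold, call and interval code was tested on simulated data. TMM factors came from edgeR 4.0.16 and size factors from DESeq2 1.42.0 in R 4.3.3. Other work used Python 3.11.15, numpy 2.4.6, pandas 2.3.3 and scipy 1.17.1.

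The members, lists and alternatives were chosen with earlier results of these data known. Hairpins described in full were those over 2-fold higher than PD40 at any later time, or with at least 1000 tags at PD60, and each gene's highest and lowest ratio. Up to 3 genes nearest in mean course were taken for the highest and lowest member gene. Hairpin sequences were not analysed here.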

Additional observations from a re-analysis of the deposited data

How the results depend on the processing

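With 1 pooled column per time, nothing here measures the spread between plates, and hairpins at a few tags carry only bounds. No paired analysis was possible because the plates of a time share 1 column. For the same reason leaving out plates was not run. What lay behind the changes below was not tested, except where the alternative itself accounts for them. A value counts as moved when it differs from the reported one by more than the SD over the hairpins concerned, or a count by over 1.5 times.

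Scaling set the direction of most values. With TMM factors and the pseudocount kept at its worth in tags, a setting added after seeing the data, every log2 fold change rose by 6.85, and 26 hairpins were higher and 2 lower at PD60. The medians turned to 1.32 over all, 0.71 for IKK, 1.20 for inhibitor and 1.88 for subunit genes. The means turned to 4.31 for IKBKE, 2.32 for CHUK, 0.28 for IKBKG, 2.89 for NFKB1, 0.90 for NFKB2, 2.37 for NFKBIA, 1.07 for NFKBIB, 0.84 for NFKBIE and 1.64 for NFKBIZ. The other scalings set the pseudocount again to 1 CPM of the new totals, so they change both. With TMM, 7 hairpins were higher and 25 lower at PD60. The medians were -1.98 over all, -0.68 for IKK, -2.50 for inhibitor and -1.66 for subunit genes. Gene means turned positive for IKBKE (2.43), CHUK (0.90) and NFKB1 (0.63). They were -1.92 for IKBKG, -2.77 for NFKB2, -2.02 for NFKBIA, -2.16 for NFKBIB, -2.28 for NFKBIE and -1.27 for NFKBIZ. With DESeq2's size factors the counts were 7 and 25, and the medians -2.17, -0.63, -2.71 and -1.84 in the same order. The means were 2.44 for IKBKE, 0.91 for CHUK, 0.62 for NFKB1, -1.99 for IKBKG, -2.95 for NFKB2, -2.28 for NFKBIB, -2.43 for NFKBIE and -1.32 for NFKBIZ. Totals without the 50 hairpins most abundant at PD60 gave means of -2.55 for CHUK, -5.36 for IKBKG and -5.55 for NFKBIE, and 3 hairpins higher.

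The pseudocount stretches or shrinks the fold changes of hairpins near 0 tags. At 0.1 the medians were -8.24 over all, -8.78 for inhibitor and -7.97 for subunit genes. The means were -8.50 for IKBKG, -9.05 for NFKB2, -7.67 for NFKBIA, -8.53 for NFKBIB, -8.69 for NFKBIE and -7.45 for NFKBIZ. At 10 the medians were -2.73, -2.70 and -2.56, and the means -3.87 for IKBKG, -2.28 for NFKB1, -2.91 for NFKB2, -1.92 for NFKBIA, -2.78 for NFKBIB, -3.08 for NFKBIE and -2.80 for NFKBIZ. Both pseudocounts left 2 hairpins higher.

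A 4-fold threshold left 1 hairpin higher, IKBKE TRCN0000010035. With PD50 as the end point 4 hairpins were higher, with medians of -2.51 for IKK and -3.54 for inhibitor genes. With PD45 there were 6, and medians of -1.78 over all, -1.04 for IKK, -2.15 for inhibitor and -2.10 for subunit genes. With PD55 as the end point, no count or median moved. The gene means that moved at PD55 were those of NFKB1 (-1.84), NFKBIB (-4.39), IKBKG (-5.88) and NFKBIE (-5.46). Gene means at PD45 and PD50 were not put to this rule. With no count minimum and with at least 100 tags at PD40, no value moved. The NFKBIA mean nevertheless went from -4.48 to -6.42 with at least 100 tags, a change within its SD of 2.38. Leaving out 1 hairpin, or taking the median over hairpins, cannot shift a gene mean by more than its SD, so the rule says nothing of these settings. With 1 hairpin left out at a time, the mean ranged from -3.78 to -1.17 for IKBKE, the widest range. It ranged from -6.68 to -6.41 for IKBKG, the narrowest.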

Other observations

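A list of 45 kinases, other than those of the pathway, had 19 in the library, among them AURKB, ATM, ATR and AKT1, with 133 hairpins. With column totals, 7 of the 132 hairpins called were over 2-fold higher at PD45 (5.30%, against 5.73% of the library). At PD60 they were 4 of 132 (3.03%, against 2.28%), with a median log2 fold change of -5.49.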
